A study of Homo sapiens with 28 samples.

Results

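The outer end of the long arm of human chromosome 19 is filled with genes for C2H2 zinc finger proteins. The protein-coding genes there whose symbols begin with ZNF are described here across 8 groups of colorectal cancer cells. A gene was taken as a member when its row lay on chromosome 19 in both count tables, started at or beyond position 52000000 (hg38) and was protein-coding. This rule gave 93 members among 62703 genes in the tables. Another 136 protein-coding genes of the same region have other names, 156 ZNF genes lie elsewhere on chromosome 19 and 267 lie on other chromosomes. The set was chosen for ZNF677, which had no counts in any library of 1 TWIST1 knockout clone, clone 3.6. Every value that sets clone 3.6 against its parent is therefore given as a description, with no p-value. The rule's border runs between ZNF615 (start 51991332, 170 to 248 counts in MDST8 WT), which is outside, and ZNF614 (start 52012765, 165 to 180 counts), which is inside.

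MDST8 is a mesenchymal colorectal cancer line of the class CMS4, and LoVo is a colorectal cancer line outside that class. TWIST1, an E-box binding transcription factor of the epithelial-mesenchymal transition, was targeted by CRISPR-Cas9 in MDST8 and by shRNA in LoVo. The RNA-seq groups, of 3 libraries each, were wild type MDST8 (WT), TWIST1 knockout clones 1.1 (labelled TG1), 2.2 (TG2), 3.2, 3.5 and 3.6 (all TG3), LoVo labelled shRNA control and LoVo labelled TWIST1 shRNA. All were cultured cells without further treatment, each knockout group is a colony grown from a single cell, and nothing says that the libraries of a group came from separate cultures, so every p-value measures the spread between these libraries alone. In addition, 1 TWIST1 ChIP-seq peak list per line came from unmodified cells.

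Most of these genes belong to the Krüppel-associated box (KRAB) family, the largest family of mammalian transcription factors. The array of zinc fingers binds DNA, often inside transposable elements. The KRAB domain recruits TRIM28, which brings SETDB1, HP1 proteins and DNA methyltransferases to the bound site and silences it. The genes arose by repeated tandem duplication, so neighbours are related in sequence. Their promoters are CpG-rich, and several of them are known to be methylated in colorectal tumours.

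The 24 RNA-seq libraries held between 16567606 and 22217009 counts, so that 3 counts, the floor used here, stood for 0.135 to 0.181 CPM, the count scaled by the library total. The labelled conditions were checked first. The TWIST1 gene itself had 797 to 1034 counts in WT and 553 to 1195 in the clones, where counts from an edited gene need not fall. In LoVo it had 0 counts in every library labelled shRNA control and 73 to 93 in those labelled TWIST1 shRNA, opposite to the labels. All LoVo directions below follow the labels. In every MDST8 group 6 of 6 mesenchymal markers had more than 3 counts in at least 1 library. Of the 8 epithelial markers 3 did so in WT, KRT8, KRT18 and KRT20, and the 8 summed to 70.0 to 75.9 CPM there. EPCAM, CDH1, CDX2, VIL1 and LGALS4 stayed at or below 3 counts in WT. The fibroblast markers, 4 of 4 past this limit in WT, summed to 600 to 614 CPM. In LoVo labelled shRNA control 8 of 8 epithelial markers passed the same limit, and markers of leukocytes summed to at most 1.55 CPM in any library.

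The members fell into 4 stretches, separated by gaps of more than 400000 bases that were set after the positions were read. The 34 genes from ZNF614 to ZNF331 lie at chr19:52012765-53580269, 7 from ZNF628 to ZNF581 at chr19:55476617-55645623, 9 from ZNF787 to ZNF835 at chr19:56087366-56671783 and 43 from ZNF264 to ZNF446 at chr19:57191500-58481230. A run of 10 letters, called the element below, recurred in promoters of the outermost stretch. The letters were taken from the ZNF264 promoter, so the shares below are a description and not a test. Whether the element has a function was not tested. RefSeq promoter windows (GRCh38.p14, the 250 bases before the start site) were at hand for 82 of the 93 members. The letters GGACTTCCGG, searched on both strands after they had been noticed in several windows, stood in 15 of these 82 promoters (18.3%). They stood in 81 of 15343 promoters of protein-coding genes (0.528%), in 0 of 136 promoters of ZNF genes elsewhere on chromosome 19 and in 2 of 96 promoters of the other genes of the region. All 15 genes were in the outermost stretch. The windows of 7 of them are shown on the strand of the gene with the element in capitals, because these genes differed in their activity in LoVo as described further on.
ZNF264 (chr19:57191456-57191495): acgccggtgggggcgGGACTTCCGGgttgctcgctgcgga
ZNF547 (chr19:57363406-57363445): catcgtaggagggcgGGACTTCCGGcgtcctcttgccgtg
ZNF134 (chr19:57614207-57614241): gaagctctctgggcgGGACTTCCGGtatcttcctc
ZNF773 (chr19:57499851-57499890): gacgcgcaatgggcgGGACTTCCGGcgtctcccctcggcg
ZNF671 (chr19:57727625-57727658, minus strand): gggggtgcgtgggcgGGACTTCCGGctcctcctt
ZNF805 (chr19:57240577-57240616): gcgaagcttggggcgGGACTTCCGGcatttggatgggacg
ZNF776 (chr19:57746779-57746814): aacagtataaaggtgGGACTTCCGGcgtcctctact
In 14 of the 15 the element had the orientation of the gene, and it ended between 7 and 120 bases before the start site. ZNF587B and ZNF814 held the same 40 letters around it. Whether reads of their transcripts are shared between them was not tested. The element was found in 3 of 9 promoters of members that were silent in LoVo labelled shRNA control alone, in 2 of 16 of those silent in both LoVo groups and in 10 of 51 of those silent in neither MDST8 WT nor LoVo labelled shRNA control.

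A member was called silent in a group when each of its 3 libraries held at most 3 counts, and expressed when each held at least 20. By this measure 47 of the 93 members were expressed in all 8 groups and 6 were silent in all 8, namely ZNF880, ZNF534, ZNF816-ZNF321P, ZNF667, ZNF835 and ZNF135. All 1252 exon bases of ZNF816-ZNF321P are shared with other annotated genes, ZNF816 among them. Its low counts therefore cannot show whether it is silent, although it is included in the numbers of silent members. ZNF835 and ZNF135 had 0 counts in all 24 libraries. In between, 28 members were silent in some groups and not in others. MDST8 WT held 7 silent members and its clones between 8 and 11. LoVo labelled shRNA control held 32 (34.4%) and LoVo labelled TWIST1 shRNA 25 (26.9%), against 7.53% in MDST8 WT. Of all 20044 protein-coding genes, 29.5%, 27.3% and 30.9% were silent in the same 3 groups. The 267 ZNF genes of other chromosomes had closer numbers in the 2 cell lines, with 29 to 33 silent in the MDST8 groups and 34 and 35 in the LoVo groups. The 156 ZNF genes elsewhere on chromosome 19 had 7 to 17 silent in the MDST8 groups, against 62 and 56 in LoVo.

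**Figure D1:**
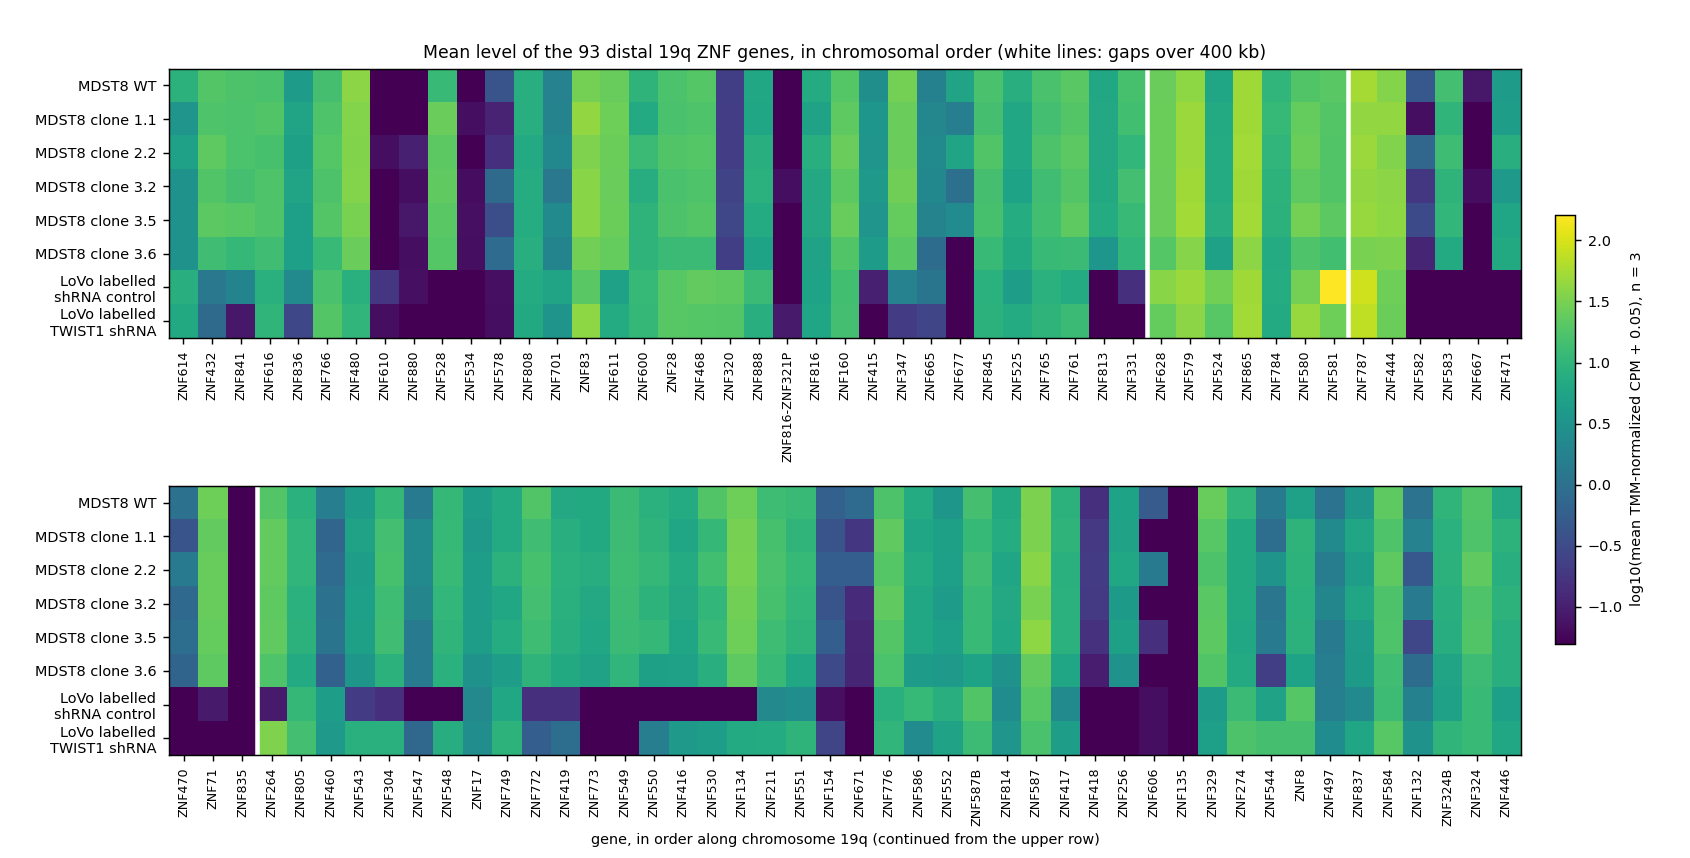
Mean level of each of the 93 genes (columns, in chromosomal order, continued in the lower panel) in each of the 8 groups (rows), as log10 of the mean normalized CPM of 3 libraries plus 0.05. White lines mark the gaps between stretches, dark cells are at or near 0, and rows of them lie in LoVo from ZNF582 to ZNF835 and, in LoVo labelled shRNA control, from ZNF773 to ZNF134.

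Levels can be compared between genes only per length, here as normalized CPM per kilobase of exon. The highest 5 members by the mean over the 8 groups lay in the stretches that end with ZNF581 and ZNF835. ZNF581 had 23 CPM per kb, ZNF787 14.8, ZNF579 13.9, ZNF865 13.3 and ZNF580 10.4. For all 5 the lowest of the 8 groups was clone 3.6, with 8.45 CPM per kb for ZNF581 and 8.79 for ZNF787. The level of ZNF581 in LoVo labelled shRNA control, 99.7 CPM per kb, was the highest of any of these 5 genes. All 93 members together made up between 0.112% and 0.115% of the counts in WT libraries and between 0.0832% and 0.0859% in LoVo labelled shRNA control.

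ZNF677 (ENSG00000197928.11, chr19:53235381-53254898, minus strand), a KRAB zinc finger gene, carried the widest differences among the MDST8 groups of the members tested. WT held 104, 109 and 111 counts. Clone 2.2 held 95, 131 and 104, which overlapped WT, and the fitted log2 difference was 0.01 ± 0.17 (SE). Clone 3.5 held 40, 42 and 54 counts, clone 1.1 held 27, 25 and 39, and clone 3.2 held 17, 22 and 19. None of these 9 libraries reached the lowest WT library, and the gene fell by 1.19 ± 0.19 on the log2 scale in clone 3.5, by 1.85 ± 0.20 in clone 1.1 and by 2.55 ± 0.22 in clone 3.2 (quasi-likelihood test of edgeR, Benjamini-Hochberg adjusted over all genes tested, adjusted p = 2.2e-06, 1.5e-09 and 7.2e-12). These comparisons share the WT libraries with the contrast that chose the gene, but the test among clones 1.1, 2.2, 3.2 and 3.5 does not. There ZNF677 showed a range of 2.56 on the log2 scale, the widest of the 9 members called in that test (edgeR's F test, adjusted p = 9.7e-12). Clone 3.6 held 0 counts in all 3 libraries, at least 39.2-fold below WT when set at the floor of 3 counts per library. Both LoVo groups also held 0 counts in all 6 libraries, which for LoVo labelled shRNA control put the gene at least 32.6-fold below MDST8 WT. In bulk RNA, fewer cells with the transcript and less transcript per cell cannot be told apart.

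The genes beside it kept counts in clone 3.6. ZNF415, ZNF347 and ZNF665, the 3 protein-coding genes before ZNF677, are KRAB zinc finger genes too. ZNF415 held 78 to 99 counts in clone 3.6 and 49 to 58 in WT. ZNF347 held 411 to 467 and 556 to 623. ZNF665 held 10 to 23 and 29 to 40. The next 3 genes after it, the vomeronasal receptor genes VN1R2 and VN1R4 and FAM90A27P, had 0 counts in every library of all groups. All 3 measured genes before ZNF677 were thus detected in every library of clone 3.6, ZNF415 above WT and the others below it.

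**Figure D2:**
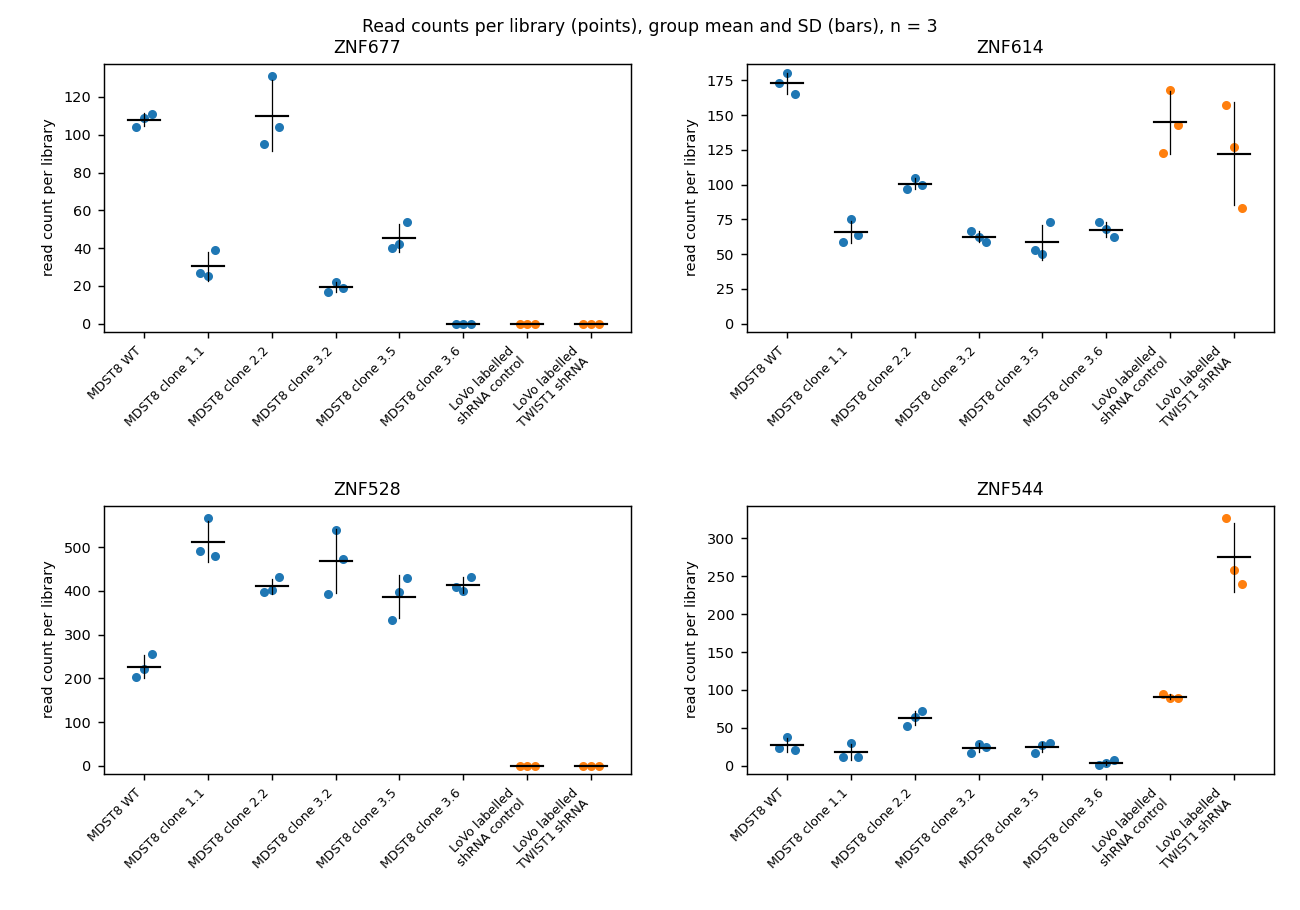
Read counts of ZNF677, ZNF614, ZNF528 and ZNF544 in each of the 24 libraries (points, blue for MDST8 and orange for LoVo) with the mean and SD of each group of 3. ZNF677 ranged from 0 counts in clone 3.6 and LoVo to 131 in clone 2.2, ZNF614 was lower and ZNF528 higher than WT in every clone, and ZNF544 was highest in LoVo labelled TWIST1 shRNA.

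The promoter of ZNF677 is shown with its 23 CpG dinucleotides in capitals, since the gene stood at 0 counts in 3 of the 8 groups. It lies at chr19:53254874-53255123 on the minus strand. The promoters of ZNF320 (chr19:52897695-52897944, minus strand), which was active in LoVo and nearly silent in MDST8, and of ZNF835 (chr19:56671758-56672007, minus strand), which had no counts anywhere, follow for comparison. They held 16 and 25 CpG dinucleotides.
ZNF677: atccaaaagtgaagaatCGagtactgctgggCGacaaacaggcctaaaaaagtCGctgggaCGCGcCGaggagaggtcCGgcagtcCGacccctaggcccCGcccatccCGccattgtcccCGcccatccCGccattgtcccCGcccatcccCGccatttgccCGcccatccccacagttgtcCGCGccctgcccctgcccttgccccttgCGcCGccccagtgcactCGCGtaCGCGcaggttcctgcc
ZNF320: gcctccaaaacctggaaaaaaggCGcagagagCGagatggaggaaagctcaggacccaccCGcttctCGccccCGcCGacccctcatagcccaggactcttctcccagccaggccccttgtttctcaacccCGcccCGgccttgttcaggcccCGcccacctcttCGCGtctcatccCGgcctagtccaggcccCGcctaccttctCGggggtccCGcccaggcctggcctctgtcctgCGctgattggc
ZNF835: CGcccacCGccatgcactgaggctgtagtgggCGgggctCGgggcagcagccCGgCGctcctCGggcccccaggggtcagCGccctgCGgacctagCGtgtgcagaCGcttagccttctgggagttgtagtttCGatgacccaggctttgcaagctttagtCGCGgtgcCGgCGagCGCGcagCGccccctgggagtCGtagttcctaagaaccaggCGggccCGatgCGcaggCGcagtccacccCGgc
Numbers of CpG dinucleotides overlapped between the classes. The median was 19 CpG dinucleotides in the 250 bases over the 82 member promoters, against 17 over 15343 protein-coding promoters. It was 16.5 in 16 promoters of members silent in both LoVo groups, 16 in 9 silent in LoVo labelled shRNA control alone, 19 in 51 silent in neither MDST8 WT nor LoVo labelled shRNA control (ZNF320 among them) and 21.5 in 6 silent in MDST8 WT. Methylation was not measured. The letters CATCTG, the E-box form sought for TWIST1 on both strands, stood in 4 of the 82 member promoters (4.88%) and in 9.73% of all.

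The comparison of each knockout clone with WT asks which genes differ after editing of TWIST1 in cells of 1 parent line. A gene was tested in MDST8 when the geometric mean of CPM plus 1 over the 18 libraries, minus 1, was at least 1. A gene with 0 counts in some libraries could thus be tested. It was called when the absolute log2 fold change exceeded 0.58 and the adjusted p was below 0.05. Of the 93 members 76 were tested. In clone 1.1, 9 were called, 5 higher and 4 lower, where 19.5% of all 13706 genes tested were called. In clone 2.2, 7 were called, 5 higher and 2 lower (background 14.7%). In clone 3.2 there were 10, 4 higher and 6 lower (background 17%), and in clone 3.5 there were 7, 3 higher and 4 lower (background 18.5%). The members called were 9.21% to 13.2% of those tested, below the background in each of these clones. The 4 comparisons share their WT libraries.

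A few members accounted for most of these calls. ZNF614 (ENSG00000142556.19), a KRAB zinc finger gene at the inner border of the region, held 173, 180 and 165 counts in WT. It held 59, 75 and 64 in clone 1.1, 97, 105 and 100 in clone 2.2, 67, 62 and 59 in clone 3.2, 53, 50 and 73 in clone 3.5 and 73, 68 and 62 in clone 3.6. All 15 clone libraries lay below the lowest WT library. The gene fell by 0.80 ± 0.14 in clone 2.2, by 1.41 ± 0.15 in clone 1.1, by 1.53 ± 0.15 in clone 3.2 and by 1.5 ± 0.15 in clone 3.5 on the log2 scale (quasi-likelihood test of edgeR, adjusted p between 8.3e-06 and 5.7e-11). The range among these 4 clones, 0.74, also passed the F test (adjusted p = 0.00016), with clone 2.2 nearest to WT.

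ZNF528 (ENSG00000167555.14, chr19:52397849-52418412) moved the other way. WT held 204, 222 and 255 counts, and the clones held 491, 567 and 481 (1.1), 398, 402 and 431 (2.2), 392, 540 and 474 (3.2), 333, 398 and 429 (3.5) and 408, 400 and 433 (3.6). No clone library overlapped WT. The gene rose by 1.15 ± 0.08 in clone 1.1, 0.84 ± 0.08 in clone 2.2, 0.97 ± 0.08 in clone 3.2 and 0.83 ± 0.08 in clone 3.5 (quasi-likelihood test of edgeR, adjusted p from 1.5e-10 to 1.5e-14). In all 6 LoVo libraries it had 0 counts.

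ZNF8, another KRAB zinc finger gene, rose from 101, 83 and 116 counts in WT to 175, 193 and 196 in clone 1.1, 166, 199 and 183 in clone 2.2, 166, 181 and 190 in clone 3.2 and 163, 153 and 179 in clone 3.5, by 0.77 to 0.89 on the log2 scale (edgeR, adjusted p at most 6.1e-06). Clone 3.6, at 102, 103 and 137 counts, overlapped WT. ZNF530 fell from 350, 360 and 348 counts to 193, 247 and 214 in clone 3.2, by 0.77 ± 0.09 on the log2 scale (edgeR, adjusted p = 2.0e-09). It held 210, 227 and 212 counts in clone 1.1, 250, 285 and 292 in clone 2.2 and 209, 224 and 217 in clone 3.5. Every library of all the clones, clone 3.6 included, lay below the lowest WT library. ZNF274, whose protein directs SETDB1 to the ends of zinc finger genes themselves, held 159 to 224 counts in WT. It was called lower in clones 1.1, 2.2, 3.2 and 3.5, by 0.59 to 0.70 on the log2 scale (edgeR, adjusted p from 8.7e-05 to 0.00067), although 1 library of clone 2.2, with 169 counts, stood above the lowest WT library. ZNF497 rose in clones 1.1 and 3.2, by 1.12 ± 0.26 and 0.93 ± 0.26 (edgeR, adjusted p = 0.00033 and 0.0028), from 21, 13 and 27 counts in WT. However, 52.3% of its exon bases overlap other annotated genes, 3 of them antisense, and the counting is not stated to use strand. ZNF580, a zinc finger gene without a KRAB domain, rose by 0.72 ± 0.10 in clone 3.5, from 299, 402 and 375 to 483, 532 and 692 counts (edgeR, adjusted p = 1.9e-07).

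**Figure D3:**
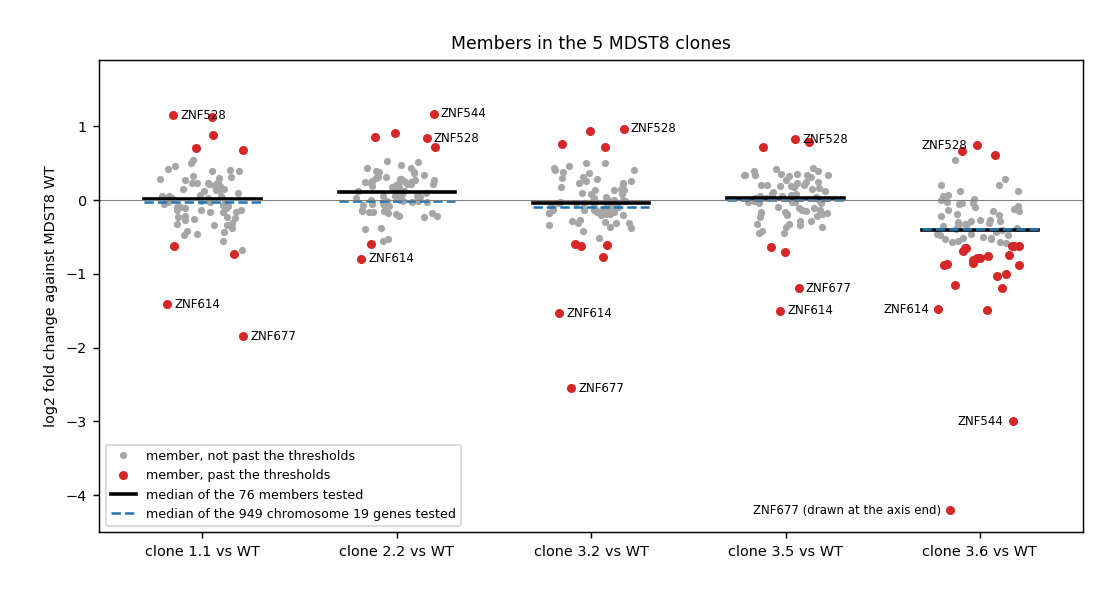
Log2 fold change of each of the 76 tested genes against MDST8 WT in the 5 clones, with those past the thresholds in red, the median of the members as a black line and the median of the 949 tested chromosome 19 genes as a dashed blue line. Both medians lie near 0 in the first 4 clones and at about -0.40 in clone 3.6, where ZNF677 is drawn at the end of the axis.

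The test among clones 1.1, 2.2, 3.2 and 3.5 asks whether cells with the same edited gene differ from each other, and it uses neither WT nor clone 3.6. It called 9 of 76 members, where 21.1% of all genes tested were called. After ZNF677, the widest range was that of ZNF544 at 1.84 (edgeR's F test, adjusted p = 2.3e-06). Clone 2.2 held 53, 64 and 72 counts of this gene, clone 1.1 held 11, 30 and 12, clone 3.2 held 17, 29 and 25 and clone 3.5 held 17, 27 and 30. Clone 2.2 stood above every library of the other clones, and also above the 24, 38 and 21 counts of WT, by 1.17 ± 0.27 on the log2 scale (edgeR, adjusted p = 0.00046).

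ZNF471 had a range of 1.04 (F test in edgeR, adjusted p = 4.1e-06), with 152, 189 and 139 counts in clone 2.2 and 56 to 128 in clones 1.1, 3.2 and 3.5. Against WT, at 67, 90 and 96 counts, clone 2.2 was higher by 0.90 ± 0.16 (edgeR, adjusted p = 1.6e-05). ZNF701 had a range of 0.91, but its call (adjusted p = 0.012 by the F test in edgeR) was lost when replicate C of clone 3.2 was left out (adjusted p = 0.078). ZNF600 had a range of 0.82 (F test in edgeR, adjusted p = 8.0e-08), with 237, 258 and 228 counts in clone 2.2 and 123 to 200 in clones 1.1, 3.2 and 3.5. Among these 4 clones, clone 2.2 stood apart for ZNF544, ZNF471 and ZNF600 as well as for ZNF677. Clone 3.6 held 134, 125 and 179 counts of ZNF471, which overlap those of clone 2.2.

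Members near the detection limit differed as well, although they were below the filter. ZNF606 held 11, 6 and 10 counts in WT and 21, 40 and 17 in clone 2.2, but 0 in every library of clones 1.1, 3.2 and 3.6 and 0, 0 and 6 in clone 3.5. ZNF671 held 11, 24 and 12 counts in WT and 4, 12 and 14 in clone 2.2, and at most 4 in any library of the other clones. ZNF582 held 6, 5 and 13 in WT and 7, 15 and 18 in clone 2.2, but 1, 0 and 0 in clone 1.1. ZNF470 held 16, 25 and 16 counts in WT, 24, 27 and 30 in clone 2.2 and 11, 3 and 7 in clone 1.1, and 0 in LoVo. ZNF132 did not follow this order, with 15, 21 and 26 counts in WT, 8, 6 and 10 in clone 2.2 and 22, 36 and 45 in clone 1.1. ZNF578 held 7, 9 and 5 in WT, 3, 3 and 0 in clone 2.2, 12, 18 and 18 in clone 3.2 and 19, 17 and 15 in clone 3.6. Which clone stood nearest to WT thus differed from gene to gene among these low counts.

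In clone 3.6, 26 of the 76 members tested passed the thresholds used for the other clones, 3 higher and 23 lower. Of all 13706 genes tested 27.0% did, 2099 of them higher and 1605 lower. Since the set was chosen on this contrast, the count stands only beside its background and nothing is read from it. The median log2 difference of the members was -0.40, and that of all genes was 0.00. The rest of the chromosome was shifted as well. The median of the 949 tested genes of chromosome 19 was -0.39, the lowest of 23 chromosomes, whose other medians ran from -0.33 to 0.17. It was -0.41 for genes starting at or beyond position 52000000 and -0.39 for those before it. ZNF genes elsewhere on chromosome 19 had a median of -0.46 and those on other chromosomes 0.05. In the other 4 clones the chromosome 19 median lay between -0.10 and 0.00. The number of copies of the chromosome was not measured.

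Beyond the shared shift, ZNF544 fell from 24, 38 and 21 counts to 1, 3 and 7, a log2 difference of -3.00 ± 0.45. ZNF587B fell from 298, 273 and 308 to 106, 111 and 124 counts, by 1.49 ± 0.10 on the log2 scale. ZNF530 dropped from 350, 360 and 348 to 183, 166 and 157, by 1.19 ± 0.09. None of these groups overlapped. Only 3 members were higher past the thresholds, ZNF528, ZNF471 and ZNF415. The sum over all members fell from 1108 ± 15.9 normalized CPM in WT (SD, n = 3) to 842 ± 9.35 in clone 3.6, while the other clones lay between 1093 and 1165.

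A pair of zinc finger genes of the region with other names were noted after their values were seen. ZIK1, a KRAB zinc finger gene beside ZNF416, held 120 to 148 counts in WT, 75 to 102 in clone 2.2, 58 to 78 in clone 3.2, 34 to 54 in clone 1.1, 23 to 35 in clone 3.5 and 1 to 5 in clone 3.6, and 0 in all LoVo libraries. Among clones 1.1, 2.2, 3.2 and 3.5 its range was 1.6 on the log2 scale. ZSCAN18 held 36 to 52 counts in WT and 48 to 57 in clone 2.2, and 5 to 13 in clones 1.1 and 3.2. It held 24 to 45 in clone 3.5, 12 to 16 in clone 3.6 and at most 2 in LoVo. For both genes, as for ZNF677, clone 2.2 held the most counts of the 5 clones.

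The 2 lines differed far more than the clones. LoVo labelled shRNA control was compared with MDST8 WT over the 79 members that passed the filter in either line. A member that passed only through MDST8 had to be lower in LoVo, so the following counts describe the 79 and not all members. There were 60 called, 14 higher and 46 lower in LoVo, where 66.5% of all genes tested were called. The median log2 difference was -0.86, and that of all genes -0.01. Line, culture history and the viral vector cannot be told apart in this comparison.

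Without a filter, the on and off pattern can be counted directly. Of the 75 members expressed in MDST8 WT, 18 (24%) were silent in LoVo labelled shRNA control. For all 11605 protein-coding genes expressed in MDST8 WT this share was 4.27%. It was 31.5% for ZNF genes elsewhere on chromosome 19, 2.82% for ZNF genes on other chromosomes and 11.8% for the other genes of the region. In the opposite direction, 0 of 54 members expressed in LoVo labelled shRNA control were silent in MDST8 WT, against 5.79% of protein-coding genes.

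The 5 members with the largest fitted differences were well expressed in MDST8. ZNF134 held 511, 525 and 571 counts in WT, ZNF530 350, 360 and 348, ZNF583 240, 286 and 313, ZNF549 256, 244 and 228 and ZNF528 204, 222 and 255, and each had 0 counts in all 3 libraries of LoVo labelled shRNA control. At the floor of 3 counts per library ZNF134 was at least 162-fold lower, ZNF530 at least 107-fold and ZNF583 at least 84.4-fold. ZNF549 was at least 73.5-fold lower and ZNF528 at least 68.5-fold. None of these genes passed the filter through LoVo labelled shRNA control, so no p-value is given.

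In all, 10 members were expressed in all 6 MDST8 groups and silent in both LoVo groups. They include ZNF528, ZNF583 and ZNF549 already given. ZNF71 held 504 to 550 counts in WT and 0 to 2 in LoVo, and was 785-fold lower in LoVo labelled shRNA control (exact counting interval 217 to 6490). ZNF331, an imprinted gene with methylation in gastrointestinal cancers, held 284 to 310 and 0 to 3. ZNF415 held 49 to 58 and 0 to 2, ZNF813 107 to 139 and 0, ZNF471 67 to 96 and 0, ZNF773 114 to 144 and 0, and ZNF256 93 to 118 and 0. They lay in the innermost stretch (4 members), in the stretch that ends with ZNF835 (3) and in the outermost stretch (3).

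The clearest exception was ZNF320 (ENSG00000182986.15, chr19:52860851-52897693, minus strand). It held 362, 397 and 418 counts in LoVo labelled shRNA control and 6, 3 and 1 in WT, and between 1 and 6 in every MDST8 library. The log2 difference was 6.96 ± 0.25. ZNF320 passed the filter only through LoVo, where it was high, so no p-value is given. ZNF581 was also higher in LoVo labelled shRNA control, by 3.00 ± 0.07, with 2684, 3150 and 2856 counts against 423, 395 and 375 (edgeR, adjusted p = 3.7e-29). ZNF28, ZNF468 and ZNF600 on the same inner stretch, by contrast, were expressed in both lines.

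The comparison of the LoVo groups was set up to show genes that follow a knockdown of TWIST1. Of 59 members tested 27 were called, 21 higher and 6 lower in LoVo labelled TWIST1 shRNA, where 52.7% of all 14270 genes tested were called. A member at 0 in 1 group passed the filter only through the other, where it was high, so that these counts describe the 59 alone. The median log2 difference of the 59 was 0.28, the same as that of all 952 tested chromosome 19 genes (0.28), and that of all genes was 0.01. The epithelial markers, all 8 of 8 detected in both groups, summed to 7412 to 7696 CPM in LoVo labelled shRNA control and 3817 to 4230 in LoVo labelled TWIST1 shRNA, and the mesenchymal markers, 5 of 6 in each, to 214 to 218 and 46.1 to 50.7. The fibroblast markers, 2 of 4 detected in each, summed to 4.02 to 5.73 CPM and 53.6 to 79.7 CPM in the same order. Their part in the members' differences was not tested. In the outermost stretch 19 of 31 tested members were called, 17 of them higher. Of the ZNF genes elsewhere on chromosome 19, 49 of 79 tested were called, 34 of them higher. Among the other genes of the region 24 of 51 tested were called, 17 of them higher.

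Within the outermost stretch lay a run in which some members were off in LoVo labelled shRNA control and on in LoVo labelled TWIST1 shRNA. It covered 21 members from ZNF264 to ZNF671 at chr19:57191500-57727624, none of them silent in MDST8 WT. There 12 were silent in LoVo labelled shRNA control, and 9 of these 12 were not silent in LoVo labelled TWIST1 shRNA. The borders of the run were drawn after these values were seen. By this choice it holds all 9 members of the whole region with that pattern. For 5 of the 93 members (5.38%) the change was from silent to expressed, against 1.16% of protein-coding genes, 7.69% of the ZNF genes elsewhere on chromosome 19 and 0.375% of those on other chromosomes.

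**Figure D4:**
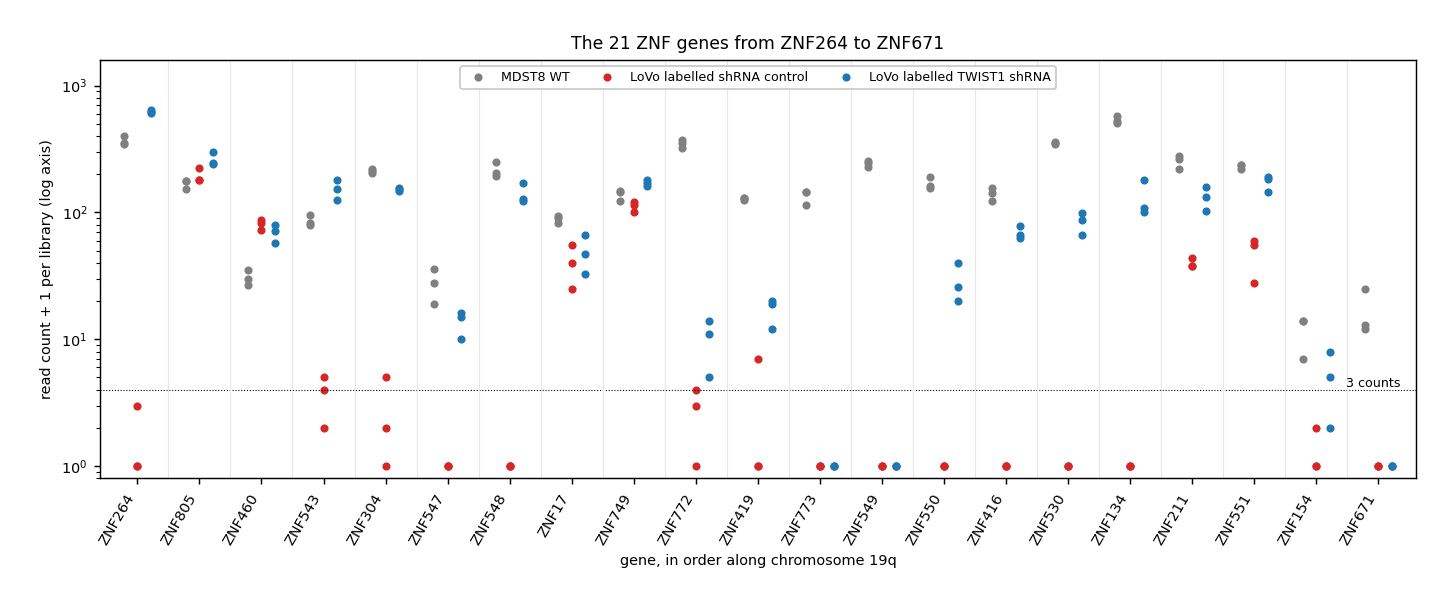
Read counts plus 1 (log axis) of the 21 genes from ZNF264 to ZNF671, in chromosomal order, in each of the 3 libraries of MDST8 WT (grey), LoVo labelled shRNA control (red) and LoVo labelled TWIST1 shRNA (blue). The dotted line marks 3 counts. Red points lie at or below it for 12 genes, among them ZNF264, ZNF548 and ZNF134, while ZNF805, ZNF460, ZNF17 and ZNF749 have red points at 24 counts or more.

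The run began with ZNF264 (ENSG00000083844.10, chr19:57191500-57222846), which held 2, 0 and 0 counts in LoVo labelled shRNA control and 638, 620 and 609 in LoVo labelled TWIST1 shRNA. The ratio was 990 (exact counting interval 274 to 8178), and the level in the second group was above the 348 to 400 counts of MDST8 WT. ZNF548 went from 0, 0 and 0 to 171, 126 and 122 counts, at least 45.3-fold higher. ZNF134 went from 0 in each library to 180, 108 and 100, at least 41.7-fold. ZNF530 went from 0 to 98, 86 and 66, at least 27.1-fold, and ZNF416 from 0 to 77, 66 and 62, at least 22.2-fold. These 5 genes passed the filter only through LoVo labelled TWIST1 shRNA, where they were high, so no p-value is given. The groups did not overlap for any of them.

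Further members of the run showed the same order. ZNF543 held 3, 1 and 4 counts against 180, 124 and 151, a log2 difference of 5.76 ± 0.34. ZNF304, which directs silencing complexes to tumour suppressor genes in colorectal cancer, held 4, 0 and 1 against 146, 155 and 153. Its difference was 6.41 ± 0.41. Both passed the filter only through LoVo labelled TWIST1 shRNA, so no p-value is given. ZNF550 held 0 against 19, 25 and 39, at least 9.08-fold higher. ZNF547 held 0 against 15, 14 and 9, ZNF772 3, 0 and 2 against 4, 13 and 10, and ZNF419 0, 6 and 0 against 18, 11 and 19. ZNF154 held 0, 0 and 1 against 7, 4 and 1, which overlap. ZNF773, ZNF549 and ZNF671 stayed at 0 in both groups.

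Active genes lay between the silent ones. ZNF805, the next gene after ZNF264, held 180, 222 and 180 counts in LoVo labelled shRNA control and 301, 242 and 244 in LoVo labelled TWIST1 shRNA. ZNF460 held 86, 72 and 81 against 78, 56 and 71, ZNF17 39, 54 and 24 against 65, 32 and 46 and ZNF749 113, 120 and 99 against 178, 170 and 160. At the outer end ZNF211 and ZNF551 were expressed in both groups and rose by 1.74 ± 0.20 and 1.88 ± 0.22 on the log2 scale (edgeR, adjusted p = 6.9e-07 and 8.4e-07). Within the run, promoters with the element shown above were those of ZNF264, ZNF547 and ZNF134, which were off in LoVo labelled shRNA control alone, of ZNF773 and ZNF671, which were off in both groups, of ZNF805 and ZNF460, which were expressed in both, and of ZNF419, which lay below 20 counts in both. In ZNF460 the element stood on the opposite strand. TRAPPC2B, a vesicle transport gene that overlaps ZNF547 on the same strand and was noted after its values were seen, held 0 against 36 to 50 counts. ZIK1, whose 5′ end overlaps that of ZNF416 on the other strand, stayed at 0 in both groups.

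In the opposite direction, ZNF581 fell most among the 59 members tested, from 2684, 3150 and 2856 to 468, 506 and 524 counts, by 2.53 ± 0.07 on the log2 scale (edgeR, adjusted p = 1.2e-14). ZNF586 fell from 188, 226 and 193 to 42, 37 and 53 counts, by 2.19 ± 0.17 (edgeR, adjusted p = 5.6e-09). Among members below the filter in LoVo, ZNF841 held 46, 34 and 19 counts against 2, 0 and 0, and was 46.7-fold lower (exact counting interval 12.6 to 391), ZNF836 held 36, 46 and 41 against 5, 3 and 5, and ZNF347 held 26, 44 and 25 against 7, 1 and 1. The first 2 are near the inner end of the region. The members named here lie outside the run from ZNF264 to ZNF671, whose borders were drawn after the values were seen.

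The proteins that carry out silencing by KRAB zinc fingers, and those that maintain heterochromatin and DNA methylation, were counted from a list of 28 genes, of which 27 were tested. In LoVo labelled TWIST1 shRNA 9 were called, 6 higher and 3 lower, where 52.7% of all genes tested were called. The de novo methyltransferase gene DNMT3B rose from 139 to 203 counts to 973 to 1329, by 2.62 on the log2 scale, and UHRF1, whose protein guides maintenance methylation, rose by 1.85. The other genes called higher were HELLS (1.05), DNMT1 (0.99), CBX1 (0.80) and CBX5 (0.60). CHD3, of the NuRD complex, fell by 1.54, DNMT3A by 0.97 and TET3 by 0.73. HDAC1 was not called there (-0.44) but was 1.56 higher in LoVo labelled shRNA control than in MDST8 WT on the log2 scale. In clones 1.1, 2.2, 3.2 and 3.5 there were 3, 0, 2 and 2 called, where 19.5%, 14.7%, 17% and 18.5% of all genes were. SUV39H1 was called lower in clones 1.1, 3.2 and 3.5. In clone 3.6, 5 passed the same thresholds, 1 higher (DNMT3A) and 4 lower, where 27.0% of all genes did. The lower genes were UHRF1, DNMT1, SUV39H1 and TRIM28. TRIM28 itself, which lies in the same region, stood at 8090 to 9000 counts in clone 3.6 against 14255 to 16706 in WT. Whether these levels have a part in the members' differences was not tested. ZFP57 had 0 counts in all MDST8 libraries.

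TWIST1 binding near the members was read from the deposited peaks, of which 1 list per line exists without a replicate, so no test was made. In MDST8, 72 of 93 members (77.4%) had a listed peak within 3000 bases of their 5′ end, against 70.8% of 20044 protein-coding genes. In LoVo it was 55 members (59.1%) against 57.2%. The peaks were weak throughout. None of the 126 peaks at members in MDST8 and none of the 78 in LoVo had a q-value at or below 0.05, the lowest being 0.274 and 0.426, and the median fold enrichment was 2.30 and 2.38. Listed peaks were found at 5 of 7 silent and 59 of 75 expressed members in MDST8 WT, and at 17 of 32 silent and 34 of 54 expressed members in LoVo labelled shRNA control. No peak was listed near ZNF677 in MDST8. In LoVo, where the gene had no counts, 2 were listed, the stronger at chr19:53251918-53253002 with a fold enrichment of 2.97 and a q-value of 0.751.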

How the data were processed

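RNA was measured in 24 libraries, 18 of MDST8 and 6 of LoVo, and TWIST1 binding in 1 ChIP-seq library per line. Per the study's methods and the submitters' processing notes, the authors trimmed reads with Trim Galore 0.6.6, aligned them to hg38 with HISAT2 2.1.0 and SAMtools 1.6 and deposited raw read counts per gene from featureCounts 2.0.0 on GENCODE annotation, with no strand option stated, so antisense overlaps cannot be separated. ChIP reads were aligned with Bowtie2 2.4.5. The authors called peaks with MACS2 2.2.7.1 at an unadjusted threshold, and the deposited peak lists give a score, a fold enrichment (ratio), and −log10 p- and q-values.

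The members and gene lists were chosen with earlier results of these data known. The named genes were ZNF677 with the 3 protein-coding genes on either side, members silent in some groups and expressed in others, and up to 5 called members with the largest change per comparison. ZIK1, ZSCAN18, TRAPPC2B, ZNF606, ZNF671, ZNF582, ZNF132, ZNF578, ZNF586, ZNF836 and ZNF347, the promoter element, the stretches and the run from ZNF264 to ZNF671 were singled out after the values were seen.

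Counts were tested with edgeR 4.0.16 (R 4.3.3, quasi-likelihood, TMM factors) in 1 fit over the 18 MDST8 libraries, 1 over the 6 LoVo libraries and 1 over all 24. Genes were tested when the geometric mean of CPM plus 1, minus 1, was at least 1. Benjamini-Hochberg adjustment was over all genes tested. Each SE is that of the fitted log2 fold change. Symbols and biotypes came from GENCODE matched by gene ID, and promoters from RefSeq (GRCh38.p14). Ratios of groups with 1 to 3 counts carry exact 95% intervals, which cover counting error only, and a group at 0 was set at 3 counts per library. The fits were tested on simulated data. DESeq2 1.42.0, limma 3.58.1, other scalings and filters, fits of the compared groups alone, a replicate block and leaving out libraries were the alternatives.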

Additional observations from a re-analysis of the deposited data

Results flagged for a closer look

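For 5 members the LoVo difference (labelled TWIST1 shRNA against labelled shRNA control) departed from the mean difference of clones 1.1, 2.2, 3.2 and 3.5 against WT, tested as 1 contrast over all 24 libraries that was chosen after the data were seen. These members were picked for the largest change between the LoVo groups. That change is part of the contrast, so the values are a description and no p-value is given. On the log2 scale the 2 effects differed by 10.24 for ZNF548, 10.00 for ZNF134 and 9.35 for ZNF264. They differed by 10.11 for ZNF530 and 9.37 for ZNF416. Each of these values rests on a LoVo group with at most 2 counts in any library, so its size depends on the prior count of the fit. The contrast passed the thresholds for 38 of 79 members (48.1%) and for 48.5% of all 15844 genes tested.

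For 5 other members the effects of clones 1.1, 2.2, 3.2 and 3.5 differed among themselves. The range of the 4 effects on the log2 scale was 2.56 for ZNF677, 1.84 for ZNF544, 1.04 for ZNF471, 0.91 for ZNF701 and 0.82 for ZNF600. No gap of a single library from its group was tested, since every group held 3 libraries.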

How the results depend on the processing

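None of the counts or named values changed direction under any alternative run. Of 77 values of counts, 62 stayed within the limits set for them. Without the filter and with edgeR's filterByExpr, which tested 91 and 84 members, 15 members were called in clone 1.1 under each and 16 differed among clones 1.1, 2.2, 3.2 and 3.5 under each, against 9 and 9. With filterByExpr 11 were called in clone 2.2, against 7. With clone 3.6 included, 39 members differed among the clones, but this clone chose the set. The shares of all genes under these settings are not given here, so nothing about the members is read from these counts. With silence set at 0 counts, 5 members were silent in clone 2.2, 4 in clone 3.2, 5 in clone 3.5 and 7 in clone 3.6. With at most 10 counts, 14 were silent in clone 1.1 and 14 in clone 3.5. Peaks within 1000 bases were listed at 23 members in LoVo, and peaks with p of at most 0.001 at 17 in LoVo and 20 in MDST8.

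Leaving out 1 library at a time gave 7 to 11 members called in clone 1.1, 6 to 7 in clone 2.2, 9 to 11 in clone 3.2, 7 to 8 in clone 3.5, 25 to 28 in clone 3.6, 24 to 27 in LoVo, 57 to 60 between the lines and 8 to 10 among the clones. Of 276 values of named genes, 275 kept their call, the exception being ZNF701 as given above. The named genes kept their call in 282 of 282 values under the other alternatives.

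The letters of the replicates did not pair the libraries of clones 1.1, 2.2, 3.2 and 3.5 with those of WT. Over 15 pairs of WT and clone the correlation of libraries with the same letter ran from -0.11 to 0.12, with a median of -0.03, and 3 of 15 libraries correlated best with their own letter. All 3 were of clone 3.6, with correlations of 0.12, 0.02 and 0.09 for the letters A, B and C. With the letter as a replicate block, 9, 7, 10, 7 and 26 members were called in clones 1.1, 2.2, 3.2, 3.5 and 3.6, 10 differed among the clones and 58 were called between the lines. The LoVo groups carry letters in 1 group and numbers in the other, so no block was fitted between them.

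A count of 0 in a library allowed a level of up to 0.135 to 0.181 CPM, so silence is meant at this depth. In LoVo the labels and the TWIST1 counts disagree. Each clone is 1 colony, so clone and editing cannot be told apart. Of the 93 members, 58 share at least 1 exon base with another gene.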
